A study of Mus musculus with 2 samples.

Results

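γδ T cells made up 183 of the 31621 cell barcodes in a single-cell RNA-seq experiment on ulcerated mouse skin, captured with 10x Genomics 5′ chemistry. The members were chosen by their transcripts. Each had at least 200 detected genes and at most 15% mitochondrial UMIs (unique molecular identifiers, which count captured molecules). Each held at least 1 UMI of Cd3d, Cd3e or Cd3g, which encode signalling chains that every T cell receptor shares. Each also held at least 2 UMIs of Trdc and Trdv4 together, the constant gene and a variable segment of the δ chain. Barcodes with a UMI of Foxp3, the factor of regulatory T cells, or of Csf1r, a macrophage receptor, were not members. Nor were barcodes with at least 1% of their UMIs in the neutrophil genes S100a8 and S100a9, or at least 0.3% in the collagen genes Col1a1, Col1a2 and Col3a1. Levels of these gating genes therefore describe the choice and are not results. The working name of the class is dermal γδ T cells. The whole skin was dissociated with dispase, accutase and collagenase, so the position of a cell in dermis or epidermis was not measured.

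The design had 2 libraries, 1 per genotype. The first was labelled with whole-body overexpression of Has2, an enzyme that makes hyaluronan, and is called the TG-labelled library here. The other was labelled wild type. Both came from lesional skin that had been stripped with tape 40 to 50 times a day over 15 days. The labels used here give no promoter for the transgene, no strain and no age, and they do not say how many animals a library holds. No difference between the libraries could be tested, so each is given with a 95% interval that covers counting error only, and genotype, animal and library preparation cannot be told apart. Depth was similar, with 134917708 UMIs over 14622 TG-labelled barcodes (median 4320) and 143875454 UMIs over 16999 wild-type barcodes (median 4287). The limits on genes and mitochondrial UMIs left 14415 TG-labelled and 16837 wild-type barcodes. The libraries shared 79 barcode sequences, of which 0 belonged to a γδ T barcode. Has2 itself stood at 85.8 CPM (the UMIs of a gene per fixed total of UMIs summed over the barcodes compared) over all kept TG-labelled barcodes, against 71.5 CPM in wild type. Within γδ T barcodes there were 0 Has2 UMIs in the TG-labelled library, against 16 in wild type, 14 of them in 1 barcode. The genotype is therefore given throughout as the label only.

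T cells carry a receptor of either α and β or γ and δ chains. In mice, γδ T cells leave the thymus in waves that are marked by their variable segments and settle in particular tissues. Cells that pair the Trgv5 and Trdv4 segments are known as the dendritic T cells of the epidermis. Cells that pair Trgv6 with Trdv4 are known in the dermis and in mucosal tissues, where they make interleukin 17 under the influence of interleukin 23 and interleukin 1, a programme called type 17.

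The last 240 coding bases of these 3 segments are shown because the segments separate these kinds of cell, and because a 5′ library reads into the variable segment. They come from GENCODE M21 transcripts on build GRCm38, an earlier build than the one the counts were made on, and were matched by gene identifier. Capitals mark the codons for the tyrosine and the conserved cysteine that precede the junction, the hypervariable stretch that contacts ligand. Trdv4 (ENSMUSG00000076867) lies at chr14:54075004-54075515 on the plus strand. Trgv6 (ENSMUSG00000076746) lies at chr13:19190368-19190929 and Trgv5 (ENSMUSG00000076747) at chr13:19192278-19192725, both on the plus strand. Each of these spans covers the whole segment with its intron. The bases shown run from coding base 106 to 345 of Trdv4, 125 to 364 of Trgv6 and 102 to 341 of Trgv5.
Trdv4: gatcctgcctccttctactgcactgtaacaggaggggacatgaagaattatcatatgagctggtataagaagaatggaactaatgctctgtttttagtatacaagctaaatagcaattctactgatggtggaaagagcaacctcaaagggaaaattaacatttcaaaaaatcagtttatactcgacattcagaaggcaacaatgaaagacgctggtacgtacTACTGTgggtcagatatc
Trgv6: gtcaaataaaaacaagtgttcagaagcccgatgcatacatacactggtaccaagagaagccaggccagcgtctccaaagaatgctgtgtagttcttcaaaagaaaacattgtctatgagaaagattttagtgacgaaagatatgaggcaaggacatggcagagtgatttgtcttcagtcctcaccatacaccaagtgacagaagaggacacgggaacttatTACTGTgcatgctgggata
Trgv5: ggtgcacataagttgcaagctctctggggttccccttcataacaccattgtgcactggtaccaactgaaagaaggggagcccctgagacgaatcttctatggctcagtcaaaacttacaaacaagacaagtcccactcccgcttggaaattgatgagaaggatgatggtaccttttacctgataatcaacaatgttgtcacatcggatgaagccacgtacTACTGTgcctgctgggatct
Over their whole coding sequences Trgv5 and Trgv6 were 52.9% identical, and Trdv4 and Trgv6 53% identical. Trgv1 and Trgv2 were 95.1% identical, and the constant genes Trgc1 and Trgc2 were 94.6% identical, so the split of UMIs within those pairs is uncertain.

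The TG-labelled library held 44 γδ T barcodes, against 139 in wild type. They were 0.305% of kept TG-labelled barcodes (exact binomial interval 0.222 to 0.410%) and 0.826% of kept wild-type barcodes (0.694 to 0.974%). The share in the TG-labelled library was 0.370 times that in wild type, with an exact interval of 0.257 to 0.522. For comparison, αβ T barcodes were taken with the same limits, at least 2 UMIs of Trac, Trbc1 and Trbc2 and no Trdc or Trdv4 UMI. They numbered 29 in the TG-labelled library and 59 in wild type, a ratio of shares of 0.574 (0.355 to 0.910). Foxp3 T barcodes, which held a Foxp3 UMI, numbered 44 in the TG-labelled library and 22 in wild type, a ratio of 2.34 (1.37 to 4.09). Of the barcodes in the 3 T cell classes, γδ T barcodes were 37.6% in the TG-labelled library (28.8 to 47.0%) and 63.2% in wild type (56.4 to 69.6%). Thus, by these rules, γδ T barcodes were the largest T cell class in wild type, and equal in number to Foxp3 T barcodes in the TG-labelled library. The rules differ between classes, and barcodes with a Cd3 UMI that met none were not counted, so relative class sizes depend on the rules. Shares of kept barcodes move with every other cell type in the suspension, and barcodes with at least 1% collagen UMIs and no Cd3 UMI (fibroblast-rule barcodes) made up 14.7% of the TG-labelled and 5.99% of the wild-type library. Their part in the difference was not tested.

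**Figure D1:**
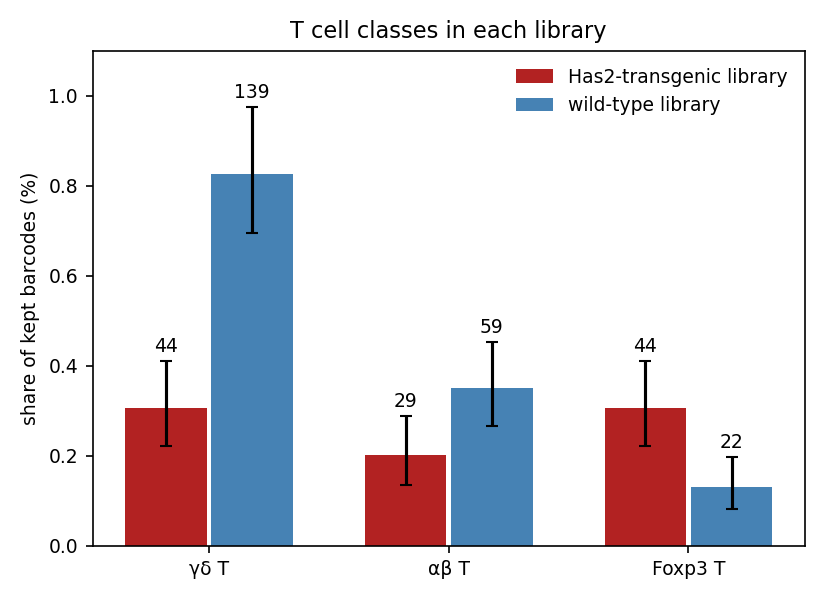
Bars give the share of kept barcodes (%) in γδ T, αβ T and Foxp3 T classes, for the TG-labelled library (left bar of each pair) and wild type (right bar), with exact 95% binomial intervals for counting error and the number of barcodes above each bar. The γδ T share was 0.305% in the TG-labelled library and 0.826% in wild type, while the Foxp3 T share was 0.305% and 0.131% in the TG-labelled and wild-type libraries.

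Members near the threshold were few. Exactly 2 UMIs of Trdc and Trdv4 were held by 1 TG-labelled and 3 wild-type members, and 3 TG-labelled and 2 wild-type barcodes with 1 such UMI fell just outside. The median member held 9 UMIs of the pair in the TG-labelled library and 10 in wild type. Among barcodes with a Cd3 UMI and at least 2 UMIs of the pair, 48 in the TG-labelled library and 166 in wild type, the Csf1r limit removed 1 and 14, the collagen limit 2 and 6, the S100 limit 0 and 9 and the Foxp3 limit 1 and 1 in the TG-labelled and wild-type libraries. Median depth of members was 3534 UMIs in the TG-labelled library and 4479 UMIs in wild type, with 1662 and 1902 genes in TG-labelled and wild-type members. All 4 markers given for the class, Trdc, Trdv4, Cd3e and Cd3g, belong to the rule, so their levels describe the choice and cannot check the label. Cd3g stood at 1065 CPM in TG-labelled and 745 CPM in wild-type γδ T barcodes, Cd3d at 527 and 549 CPM in TG-labelled and wild-type, and Cd3e at 455 and 439 CPM in TG-labelled and wild-type.

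Most members carried the receptor that the dermal cells are known for. The δ chain was nearly uniform. Trdc was detected in 42 of the 44 TG-labelled and 135 of the 139 wild-type members, and Trdv4 in 43 TG-labelled and 136 wild-type members. Both genes were seen together in 41 TG-labelled and 132 wild-type members. Any δ variable segment other than Trdv4 was seen in 1 TG-labelled member, which held Trdv5, and in 2 wild-type members, which held Trdv2-2. Since Trdv4 helped to choose the members, cells using other δ segments could enter only through Trdc, and 1 TG-labelled and 3 wild-type members had Trdc without Trdv4.

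The γ chain was not part of the rule. Trgv6 was the segment detected most often, in 33 TG-labelled members (75.0%, exact interval 59.7 to 86.8%) and 93 wild-type members (66.9%, 58.4 to 74.6%). Of those with Trgv6, 33 TG-labelled and 92 wild-type members also held Trdv4. Trgv2 was found in 11 TG-labelled (25.0%) and 36 wild-type members (25.9%), mostly beside Trgv6, in 9 TG-labelled and 24 wild-type members. The epidermal segment Trgv5 was found in 6 TG-labelled (13.6%, 5.17 to 27.4%) and 17 wild-type members (12.2%, 7.29 to 18.9%). All 6 of the TG-labelled and 11 of the wild-type members with Trgv5 also held Trgv6, so Trgv5 without Trgv6 was seen in 0 TG-labelled and 6 wild-type members. Trgv4, the segment of another interleukin 17 lineage of the skin, was found in 2 TG-labelled and 5 wild-type members. No γ variable segment was captured in 9 TG-labelled and 30 wild-type members. The shares of members with each segment overlapped in their intervals between libraries except for the constant gene Trgc1, seen in 22 TG-labelled members (50.0%, 34.6 to 65.4%) and 106 wild-type members (76.3%, 68.3 to 83.1%). The level of Trgv6 was 510 CPM in TG-labelled and 321 CPM in wild-type γδ T barcodes, and that of Trgc1 was 311 CPM in TG-labelled and 491 CPM in wild-type ones.

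**Figure D2:**
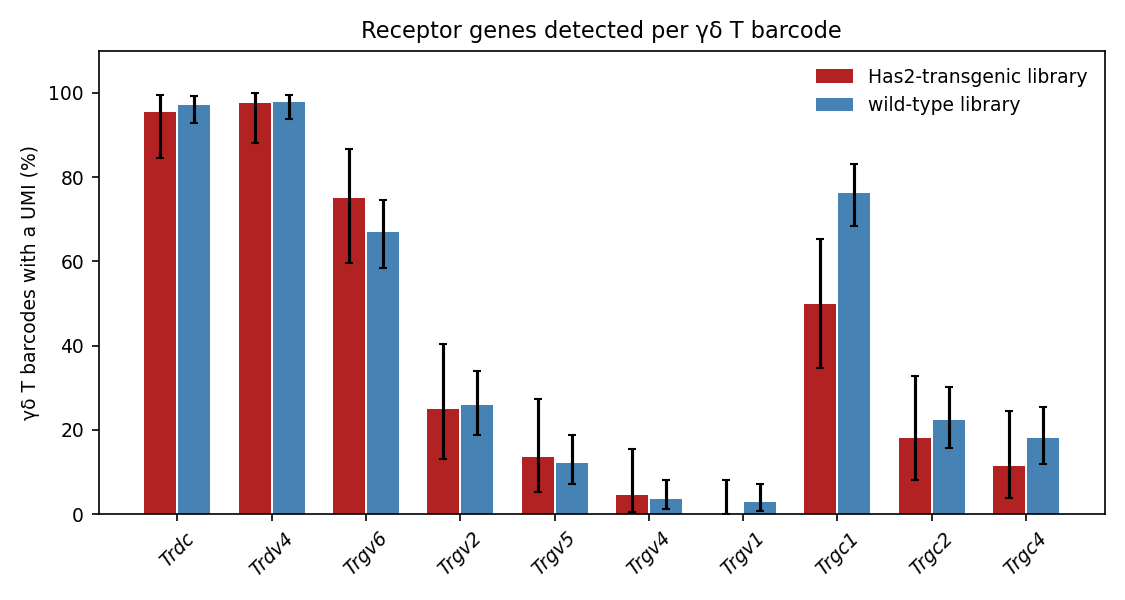
Bars give the share of γδ T barcodes (%) with at least 1 UMI of each receptor gene, for 44 TG-labelled barcodes (left bars) and 139 wild-type barcodes (right bars), with exact 95% binomial intervals. Trdc and Trdv4 belong to the rule. Among γ segments Trgv6 stood highest, at 75.0% in TG-labelled and 66.9% in wild-type barcodes, and Trgc1 was seen in 50.0% of TG-labelled and 76.3% of wild-type barcodes.

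Transcripts of αβ receptor genes were also present. A Trac UMI was found in 14 TG-labelled and 26 wild-type members, and any UMI of Trac, Trbc1 or Trbc2 in 36 TG-labelled and 123 wild-type members. Other αβ T cell genes were low: the 5 other genes of that marker list summed to 49.9 CPM in TG-labelled and 16.7 CPM in wild-type γδ T barcodes, against 760 CPM in TG-labelled and 767 CPM in wild-type αβ T barcodes. The γδ receptor genes outside the rule showed the reverse, at 1137 CPM in TG-labelled and 1101 CPM in wild-type γδ T barcodes, against 55.4 CPM in TG-labelled and 104 CPM in wild-type αβ T barcodes and 5.43 CPM in TG-labelled and 0 CPM in wild-type Foxp3 T barcodes.

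The members' genes were compared with those of the other T cells over 6 sums of UMIs, 1 for each class in each library, with the library as a block. Each contrast is γδ T over the other class. Of 6641 genes tested, 221 were higher (3.33%) and 190 lower (2.86%) in γδ T than in αβ T barcodes by edgeR's quasi-likelihood test at an adjusted p under 0.05. Against Foxp3 T barcodes 195 genes were higher (2.94%) and 219 lower (3.30%). The difference had the same sign in both libraries for 181 of the 221 genes and 176 of the 190 genes against αβ T, and for 184 of the 195 and 206 of the 219 against Foxp3 T. Against αβ T, 30 of the higher and 9 of the lower genes had 0 UMIs in both classes of a library and so no sign there, as had 7 of the higher and 13 of the lower genes against Foxp3 T. Fewer genes were called with DESeq2, 59 higher and 66 lower than in αβ T and 64 higher and 89 lower than in Foxp3 T, and without the library block, 58 higher and 73 lower than in αβ T and 81 higher and 111 lower than in Foxp3 T. A few barcodes held many UMIs of another cell type's markers. At least 10 such UMIs were present in 1 TG-labelled and 5 wild-type γδ T barcodes, 1 TG-labelled and 3 wild-type αβ T barcodes and 2 TG-labelled and 0 wild-type Foxp3 T barcodes. Without these barcodes, a choice made after seeing the data, 264 genes were higher and 259 lower than in αβ T, of which 165 and 141 were also called with them. Against Foxp3 T the counts were then 293 higher and 314 lower, with 174 and 199 shared. Both contrasts use the same γδ T sums and are therefore not independent.

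Genes of the type 17 programme were among those higher in γδ T barcodes. Of 19 type 17 receptors and surface genes tested, 10 were higher than in αβ T and 0 lower, with a median log2 difference of 1.42, against -0.01 over all genes. Of 13 genes in the list of transcription factors of this programme, which also holds the kinase gene Blk, 4 were higher and 0 lower, with a median of 0.63. Against Foxp3 T barcodes the counts were 8 higher and 1 lower of 19 surface genes, and 3 higher and 1 lower of 13 transcription factors. Of 7 cytokine genes in the list, 3 passed the limit of 30 UMIs. Il17a and Il17f passed it only through γδ T barcodes, so no count is read from the cytokines. Among the called members of the other 2 lists, Blk, Irf4, Scart1 and Actn2 also reached 30 UMIs only through γδ T barcodes. The counts and medians include these genes, and their p-values below are description and not support. The lists were chosen with results of these data known, so the counts describe them. Without the barcodes that held other cell types' markers, the counts of higher and lower genes were 12 and 1 surface genes and 6 and 0 transcription factors against αβ T, and 9 and 3 surface genes and 5 and 1 transcription factors against Foxp3 T.

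Il17a (ENSMUSG00000025929), the cytokine that gives the programme its name, stood at 377 CPM in TG-labelled and 276 CPM in wild-type γδ T barcodes. It stood at 31.7 CPM in TG-labelled and 0 CPM in wild-type αβ T barcodes, and at 0 CPM in TG-labelled and 35.9 CPM in wild-type Foxp3 T barcodes. The log2 difference was 4.80 (SE 0.73, adjusted p = 5.27e-04) against αβ T and 4.90 (SE 0.81, adjusted p = 9.82e-04) against Foxp3 T. Since Il17a and Il17f could be tested only through γδ T barcodes, their p-values are description and not support. Il17f (ENSMUSG00000041872), a related cytokine of the same receptor, stood at 1137 CPM in TG-labelled and 15.3 CPM in wild-type γδ T barcodes, against 23.8 CPM in TG-labelled and 7.99 CPM in wild-type αβ T barcodes. Its log2 difference from αβ T was 4.63 (SE 0.68, adjusted p = 4.94e-04), but wild-type γδ T barcodes were below TG-labelled αβ T barcodes. In Foxp3 T barcodes Il17f had 0 UMIs in both libraries, so it was at least 21.5-fold higher in γδ T, with 3 UMIs over both libraries as the floor. Of the 216 γδ T UMIs behind this bound, 199 lay in 1 TG-labelled barcode. DESeq2 called neither Il17a nor Il17f in either contrast. Il17f was also lost without the library block, and Il17a against Foxp3 T without barcodes that held a Trac UMI.

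These cytokine levels rested on few barcodes. Il17a was found in 10 TG-labelled and 25 wild-type members. In the TG-labelled library 1 barcode, which also held 1 Trac UMI, had 51 of the 68 UMIs, and without it the level was 94.3 CPM. In wild type the leading barcode held 45 of 198 UMIs, and the next ones 21, 21, 18 and 16. At least 5 Il17a UMIs were held by 1 TG-labelled and 12 wild-type members. Il17f was still more uneven, since 199 of the 205 TG-labelled UMIs lay in 1 barcode with 4637 UMIs in total, a single Il17a UMI, 1 Trac UMI and 0 UMIs of the macrophage, dendritic, mast, keratinocyte, fibroblast, endothelial and B cell markers. Without it the TG-labelled level was 33.3 CPM, against 9.76 CPM in wild type without its own leading barcode. After every barcode had been thinned to 1000 UMIs, Il17a was detected in 13.6% of TG-labelled members (5.17 to 27.4%) and 10.8% of wild-type members (6.17 to 17.2%), against 22.7% and 18.0% in TG-labelled and wild-type members before thinning. In 941 thinned TG-labelled and 894 thinned wild-type fibroblast-rule barcodes, which should lack the gene, 0 had an Il17a UMI, which allows shares of up to 0.319% and 0.336%. Their median depths were 25252 UMIs in the TG-labelled and 28320.5 UMIs in the wild-type library.

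The share of all Il17a transcripts that lay in γδ T barcodes depended on 1 barcode in the TG-labelled library. γδ T barcodes held 68 of the 115 Il17a UMIs in kept TG-labelled barcodes (59.1%, 49.6 to 68.2%) and 198 of 292 in wild type (67.8%, 62.1 to 73.1%). Without the leading barcode of each library they held 17 of 64 in the TG-labelled library (26.6%, 16.3 to 39.1%) and 153 of 247 in wild type (61.9%, 55.6 to 68.0%). Without barcodes with a Trac UMI the TG-labelled share was 6.96%. For Il17f they held 205 of 221 UMIs in the TG-labelled library (92.8%), nearly all from the barcode named above, and 11 of 35 in wild type (31.4%, 16.9 to 49.3%). Il22, an epithelial repair cytokine, had 3 UMIs in the TG-labelled library and 13 in wild type, of which γδ T barcodes held 2 and 5. Csf2, a myeloid growth factor that some γδ T cells make, lay elsewhere, with 0 of 12289 UMIs in TG-labelled and 8 of 17874 in wild-type γδ T barcodes.

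Of the 13 genes tested in the list of type 17 transcription factors, Blk, a Src-family kinase known to be needed by interleukin 17-producing γδ T cells, had the largest log2 difference from αβ T. It was at 677 CPM in TG-labelled and 498 CPM in wild-type γδ T barcodes, 39.6 CPM in TG-labelled and 51.9 CPM in wild-type αβ T barcodes, and 0 CPM in Foxp3 T barcodes of both. This difference was 3.58 (SE 0.37, adjusted p = 2.30e-05), and the level was at least 47.6-fold higher than in Foxp3 T. Irf4, a factor that acts downstream of antigen receptors in type 17 cells, stood at 255 CPM in TG-labelled and 392 CPM in wild-type γδ T barcodes, against 39.6 CPM in TG-labelled and 31.9 CPM in wild-type αβ T barcodes. It was higher than in αβ T by 3.26 (SE 0.42, adjusted p = 1.03e-04) and than in Foxp3 T by 2.57 (SE 0.41, adjusted p = 8.14e-04) on the log2 scale. Maf, required in these cells for the interleukin 17 fate, stood at 333 CPM in TG-labelled and 392 CPM in wild-type γδ T barcodes, against 198 CPM in TG-labelled and 71.9 CPM in wild-type αβ T barcodes (log2 1.61, SE 0.38, adjusted p = 0.0164), and its call was lost with DESeq2 and without the block. Foxp3 T barcodes held Maf at 321 CPM in TG-labelled and 335 CPM in wild-type, and it did not pass against them (log2 0.28). Zbtb16, which encodes the innate-like T cell factor PLZF, passed against Foxp3 T and not against αβ T (log2 3.80, SE 0.81, adjusted p = 0.00775), at 111 CPM in TG-labelled and 103 CPM in wild-type γδ T barcodes, against 0 CPM in TG-labelled and 24.0 CPM in wild-type Foxp3 T barcodes. DESeq2 did not call it.

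Rora, a nuclear receptor of type 17 lymphocytes, stood at 1453 CPM in TG-labelled and 1627 CPM in wild-type γδ T barcodes, against 1244 CPM in TG-labelled and 655 CPM in wild-type αβ T barcodes, and did not pass (adjusted p = 0.0764). Batf, an AP-1 factor shared by type 17 and regulatory T cells, was lower than in Foxp3 T, at 128 CPM in TG-labelled and 113 CPM in wild-type γδ T barcodes, against 402 CPM in TG-labelled and 323 CPM in wild-type Foxp3 T barcodes (log2 -1.43, SE 0.35, adjusted p = 0.0217), a call lost with DESeq2 and without the block.

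Of the type 17 receptors and surface genes, Scart1 had the largest log2 difference from αβ T. Scart1 (ENSMUSG00000025461), a scavenger receptor-like protein of γδ T cells, stood at 1498 CPM in TG-labelled and 1375 CPM in wild-type γδ T barcodes. It was at 15.8 CPM in TG-labelled and 35.9 CPM in wild-type αβ T barcodes and at 0 CPM in Foxp3 T barcodes of both. It was higher than in αβ T by 5.64 on the log2 scale (SE 0.37, adjusted p = 4.60e-07) and at least 125-fold higher than in Foxp3 T. γδ T barcodes held 90.3% of all Scart1 UMIs in the TG-labelled library (86.4 to 93.4%) and 77.7% in wild type (75.3 to 80.0%). After thinning to 1000 UMIs it was detected in 65.9% of TG-labelled and 64.7% of wild-type γδ T barcodes, against 0% of TG-labelled and 3.39% of wild-type αβ T barcodes.

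Receptors for the inducing cytokines followed. Il23r, the interleukin 23 receptor, stood at 544 CPM in TG-labelled and 768 CPM in wild-type γδ T barcodes, against 95.0 CPM in TG-labelled and 71.9 CPM in wild-type αβ T barcodes and 81.5 CPM in TG-labelled and 108 CPM in wild-type Foxp3 T barcodes. It was higher by 3.04 (SE 0.34, adjusted p = 2.45e-05) against αβ T and by 2.89 (SE 0.35, adjusted p = 4.90e-05) against Foxp3 T on the log2 scale. γδ T barcodes held 50.5% of its UMIs in the TG-labelled library and 70.8% in wild type. Il1r1, the interleukin 1 receptor, stood at 449 CPM in TG-labelled and 382 CPM in wild-type γδ T barcodes, against 95.0 CPM in TG-labelled and 43.9 CPM in wild-type αβ T barcodes (log2 2.70, SE 0.37, adjusted p = 2.13e-04). Its difference from Foxp3 T of 1.71 (SE 0.36, adjusted p = 0.00696) was lost with DESeq2 and without the block. Il2ra, the α chain of the interleukin 2 receptor and itself a mark of regulatory T cells, was higher than in αβ T, at 1232 CPM in TG-labelled and 1022 CPM in wild-type γδ T barcodes, against 578 CPM in TG-labelled and 232 CPM in wild-type αβ T barcodes (log2 1.59, SE 0.28, adjusted p = 0.00180), though not without the block. Foxp3 T barcodes held Il2ra at 1489 CPM in TG-labelled and 1521 CPM in wild-type, and it did not pass against them (log2 -0.34).

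Homing and adhesion genes were also high. Cxcr6, a chemokine receptor of tissue T cells, stood at 1387 CPM in TG-labelled and 1237 CPM in wild-type γδ T barcodes, against 483 CPM in TG-labelled and 375 CPM in wild-type αβ T barcodes and 234 CPM in TG-labelled and 144 CPM in wild-type Foxp3 T barcodes. It was higher by 1.64 (SE 0.24, adjusted p = 3.10e-04) against αβ T and by 2.86 (SE 0.27, adjusted p = 5.53e-06) against Foxp3 T on the log2 scale. Ccr2, which guides cells to inflamed sites, lay between the other classes, at 194 CPM in TG-labelled and 344 CPM in wild-type γδ T barcodes, against 39.6 CPM in TG-labelled and 59.9 CPM in wild-type αβ T barcodes and 473 CPM in TG-labelled and 862 CPM in wild-type Foxp3 T barcodes. It was higher than in αβ T by 2.46 (SE 0.36, adjusted p = 3.19e-04), while its lower level than in Foxp3 T (log2 -1.22, SE 0.27, adjusted p = 0.0115) was lost with DESeq2 and without the block. Actn2, an actin-crosslinking α-actinin, stood at 311 CPM in TG-labelled and 195 CPM in wild-type γδ T barcodes, against 55.4 CPM in TG-labelled αβ T barcodes and a lower level, from 5 UMIs, in wild-type αβ T barcodes (log2 2.86, SE 0.46, adjusted p = 8.51e-04), and was also higher than in Foxp3 T (log2 3.61, SE 0.55, adjusted p = 5.41e-04). Cd44, a receptor for hyaluronan and a mark of experienced T cells, stood at 1215 CPM in TG-labelled and 1546 CPM in wild-type γδ T barcodes, against 737 CPM in TG-labelled and 663 CPM in wild-type αβ T barcodes and 598 CPM in TG-labelled and 383 CPM in wild-type Foxp3 T barcodes. It was higher by 1.56 against Foxp3 T (SE 0.25, adjusted p = 9.12e-04). Against αβ T the difference of 1.01 (SE 0.24, adjusted p = 0.0167) was lost with DESeq2, without the block and without barcodes that held a Trac UMI.

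Tmem176a, a membrane protein found in type 17 lymphocytes, and Ltb4r1, a receptor for the neutrophil attractant leukotriene B4, were higher than in αβ T by 1.77 (SE 0.42, adjusted p = 0.0172) and 1.81 (SE 0.46, adjusted p = 0.0250) on the log2 scale, and both calls were lost with DESeq2 and without the block. Ltb4r1 did not pass against Foxp3 T, with 116 and 107 CPM in TG-labelled and wild-type γδ T barcodes. Foxp3 T barcodes had 92.4 and 83.8 CPM in TG-labelled and wild-type. Ccr6, often used to mark interleukin 17-producing cells, did not pass in either contrast, at 77.7 CPM in TG-labelled and 55.8 CPM in wild-type γδ T barcodes, against 31.7 CPM in TG-labelled and 27.9 CPM in wild-type αβ T barcodes. Il7r and Il18r1, receptors for the cytokines interleukin 7 and interleukin 18, did not pass against αβ T either.

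**Figure D3:**
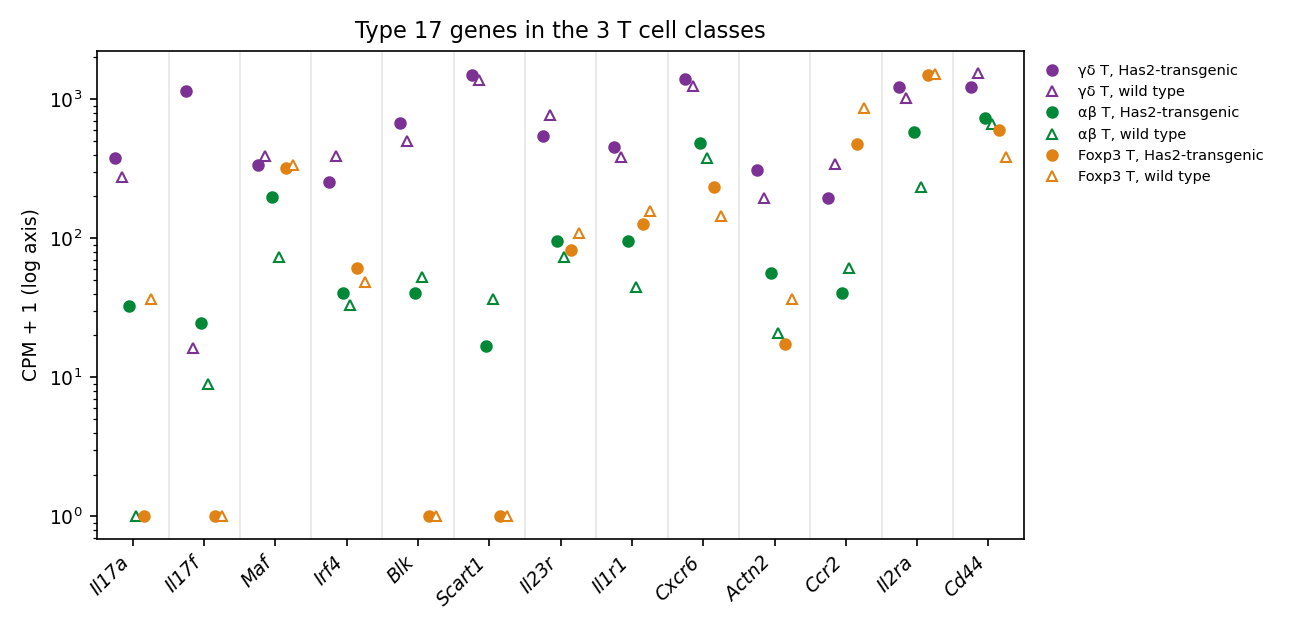
Points give CPM plus 1 (log axis) of 13 type 17 genes in each class, with filled circles for the TG-labelled library and open triangles for wild type. γδ T values stand left of αβ T and Foxp3 T values for each gene. Scart1, Blk, Il23r, Irf4, Cxcr6 and Actn2 in γδ T lay above both other classes in both libraries, and Il17f in γδ T was 1137 CPM in the TG-labelled library and 15.3 CPM in wild type.

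Several genes that carry or tune the receptor signal were lower in γδ T barcodes. Of 18 receptor signalling genes, 1 was higher and 8 lower than in αβ T, with a median log2 difference of -0.64, and 0 were higher and 9 lower than in Foxp3 T, with a median of -0.92. The 8 and 9 lower genes were unchanged in number without the barcodes that held other cell types' markers. The kinase gene Lck, which starts αβ receptor signalling, had 0 CPM in TG-labelled and 1.39 CPM in wild-type γδ T barcodes, against 238 CPM in TG-labelled and 256 CPM in wild-type αβ T barcodes (log2 -7.27, SE 0.63, adjusted p = 3.76e-06). In Foxp3 T barcodes it stood at 152 CPM in TG-labelled and 132 CPM in wild-type. Cd28, the main costimulatory receptor, was as low, at 0 CPM in TG-labelled and 1.39 CPM in wild-type γδ T barcodes, against 174 CPM in TG-labelled and 224 CPM in wild-type αβ T barcodes (log2 -7.09, SE 0.64, adjusted p = 4.95e-06). The coreceptor gene Cd4 had 0 UMIs in γδ T barcodes of both libraries, which was at least 55.6-fold lower than in αβ T and 58.1-fold lower than in Foxp3 T.

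The adhesion receptor Cd2 stood at 33.3 CPM in TG-labelled and 44.6 CPM in wild-type γδ T barcodes, against 436 CPM in TG-labelled and 423 CPM in wild-type αβ T barcodes (log2 -3.37, SE 0.32, adjusted p = 6.71e-06). Cd5 and Cd6, which dampen receptor signals, had log2 differences of -2.89 (SE 0.42, adjusted p = 3.12e-04) and -3.06 (SE 0.37, adjusted p = 6.45e-05) from αβ T, and both were lower in each library. Prkcq, a kinase between the receptor and NF-κB, and Ptprc, which encodes the phosphatase CD45, differed by -3.83 (SE 0.62, adjusted p = 8.51e-04) and -1.18 (SE 0.21, adjusted p = 0.00193). All 8 genes that were lower than in αβ T were also lower than in Foxp3 T, and they passed in every alternative that tested them. Zap70, Lat, Lcp2, Fyn, Cd247 and Thy1, members of the same list, did not pass in either contrast, and 9 of the 18 genes passed in each. Icos, a costimulatory receptor, was the member that was higher than in αβ T, at 2324 CPM in TG-labelled and 1748 CPM in wild-type γδ T barcodes, against 1046 CPM in TG-labelled and 946 CPM in wild-type αβ T barcodes (log2 1.04, SE 0.20, adjusted p = 0.00353), a call lost without the block. Foxp3 T barcodes held Icos at 1864 CPM in TG-labelled and 2168 CPM in wild-type, and it did not pass against them (log2 0.09).

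Checkpoint and costimulatory receptors went both ways. Of 9 tested, 3 were higher and 4 lower than in αβ T, and 2 higher and 5 lower than in Foxp3 T. These counts were the same without the barcodes that held other cell types' markers. Pdcd1 (ENSMUSG00000026285), which encodes the inhibitory receptor PD-1, stood at 1537 CPM in TG-labelled and 570 CPM in wild-type γδ T barcodes, against 356 CPM in TG-labelled and 228 CPM in wild-type αβ T barcodes and 277 CPM in TG-labelled and 240 CPM in wild-type Foxp3 T barcodes. The lower γδ T value was above every value of the other classes, and the log2 difference was 1.74 (SE 0.29, adjusted p = 0.00109) against αβ T and 2.03 (SE 0.31, adjusted p = 5.41e-04) against Foxp3 T. Both calls were lost without the library block. Pdcd1 was spread over the members, with at least 1 UMI in 40 of the 44 TG-labelled and 114 of the 139 wild-type ones. Havcr2, which encodes the checkpoint receptor TIM-3, was higher than in αβ T by 2.18 on the log2 scale (SE 0.40, adjusted p = 0.00247), though not with DESeq2, and Tnfrsf9, which encodes 4-1BB, by 1.78 (SE 0.24, adjusted p = 1.36e-04). Against Foxp3 T, Havcr2 did not pass (log2 0.94) and Tnfrsf9 was lower (log2 -0.82, SE 0.22, edgeR adjusted p = 0.0323). Tnfrsf9 stood at 1176 and 806 CPM in TG-labelled and wild-type γδ T barcodes. Foxp3 T barcodes had 1880 and 1749 CPM in TG-labelled and wild-type. Cd226, an activating receptor, was higher than in Foxp3 T, at 166 CPM in TG-labelled and 151 CPM in wild-type γδ T barcodes, against 10.9 CPM in TG-labelled and 12.0 CPM in wild-type Foxp3 T barcodes (log2 3.82, SE 0.61, adjusted p = 7.25e-04). Cd226 reached the limit of 30 UMIs only through γδ T barcodes, so its p-value is description.

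The other checkpoint genes were nearly absent. Tnfrsf4, which encodes OX40, stood at 0 CPM in TG-labelled and 2.79 CPM in wild-type γδ T barcodes, against 673 CPM in TG-labelled and 140 CPM in wild-type αβ T barcodes (log2 -6.57, SE 0.59, adjusted p = 4.23e-06) and 1244 CPM in TG-labelled and 563 CPM in wild-type Foxp3 T barcodes. Tnfrsf18, which encodes GITR, stood at 22.2 CPM in TG-labelled and 12.5 CPM in wild-type γδ T barcodes, against 325 CPM in TG-labelled and 343 CPM in wild-type αβ T barcodes (log2 -4.42, SE 0.39, adjusted p = 3.76e-06). The inhibitory receptor genes Ctla4 and Tigit had log2 differences of -4.30 (SE 0.67, adjusted p = 5.67e-04) and -2.61 (SE 0.39, adjusted p = 4.21e-04) from αβ T and were lower in both libraries.

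**Figure D4:**
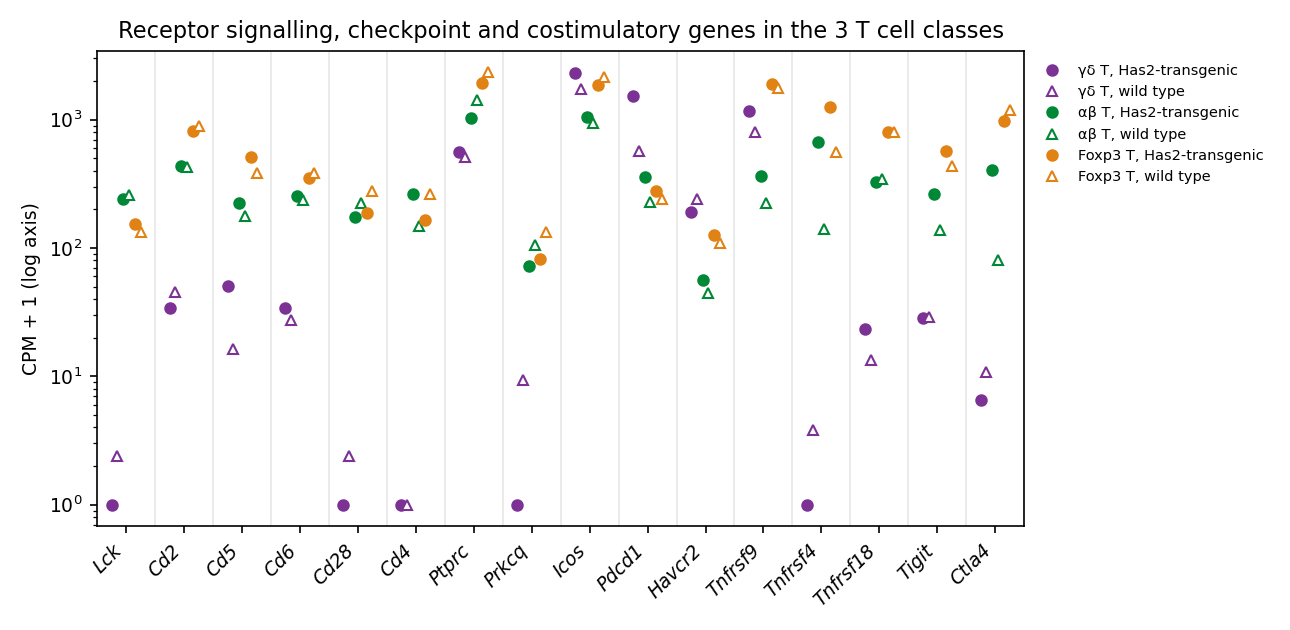
Points give CPM plus 1 (log axis) of 16 receptor signalling, checkpoint and costimulatory genes in each class, with filled circles for the TG-labelled library and open triangles for wild type, and γδ T values left of αβ T and Foxp3 T values. Lck, Cd28 and Tnfrsf4 in γδ T lay at 0 to 2.79 CPM, and Pdcd1 in γδ T at 1537 CPM in the TG-labelled library and 570 CPM in wild type lay above the other classes.

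Genes of the type 1 and cytotoxic programmes were mostly lower than in αβ T, with 8 lower and 1 higher of 12 tested and a median log2 difference of -3.37. Against Foxp3 T 2 were higher and 3 lower, with a median of 1.01. The chemokine gene Ccl5 had 0 UMIs in γδ T barcodes, against 1402 CPM in TG-labelled and 1070 CPM in wild-type αβ T barcodes, so it was at least 353-fold lower. Cd27, whose absence is known to mark interleukin 17-producing γδ T cells in mice, also had 0 UMIs, against 95.0 CPM in TG-labelled and 83.8 CPM in wild-type αβ T barcodes and 255 CPM in TG-labelled and 216 CPM in wild-type Foxp3 T barcodes. It was at least 26.2-fold lower than in αβ T and 72.7-fold lower than in Foxp3 T. Nkg7, a cytotoxic granule protein gene, stood at 0 CPM in TG-labelled and 36.3 CPM in wild-type γδ T barcodes, against 47.5 CPM in TG-labelled and 363 CPM in wild-type αβ T barcodes (log2 -3.41, SE 0.48, adjusted p = 2.45e-04), a call lost with DESeq2 and without the block. Cxcr3, the receptor of type 1 T cells, stood at 5.55 CPM in TG-labelled and 4.18 CPM in wild-type γδ T barcodes, against 63.4 CPM in TG-labelled and 63.9 CPM in wild-type αβ T barcodes (log2 -3.82, adjusted p = 0.00512), a call lost with DESeq2. The exception was Klrk1, which encodes the stress-ligand receptor NKG2D, at 344 CPM in TG-labelled and 229 CPM in wild-type γδ T barcodes, against 95.0 CPM in TG-labelled and 104 CPM in wild-type αβ T barcodes (log2 1.45, SE 0.36, adjusted p = 0.0234), a call lost with DESeq2 and without the block. With 0 UMIs in Foxp3 T barcodes, Klrk1 was at least 22.5-fold higher in γδ T.

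Residency and trafficking genes went both ways, with 2 higher and 4 lower of 15 against αβ T and 2 higher and 6 lower against Foxp3 T. Without the barcodes that held other cell types' markers, 3 were higher and 5 lower in each contrast. Rgs1, a regulator of chemokine receptor signals found in tissue-resident T cells, stood at 1836 CPM in TG-labelled and 1270 CPM in wild-type γδ T barcodes, against 451 CPM in TG-labelled and 567 CPM in wild-type αβ T barcodes and 310 CPM in TG-labelled and 192 CPM in wild-type Foxp3 T barcodes. It was higher by 1.56 (SE 0.25, adjusted p = 8.06e-04) and 2.67 (adjusted p = 1.22e-05) on the log2 scale against αβ T and Foxp3 T. The chemokine receptor Cxcr4 was higher by 1.15 (SE 0.25, adjusted p = 0.00961) than in αβ T, a call lost without the block. Among genes of recirculation, Ccr7 and S1pr1 were lower and Klf2, a transcription factor that drives tissue exit, did not pass (adjusted p = 0.548). Ccr7, the receptor that leads cells into lymph vessels, stood at 11.1 CPM in TG-labelled and 9.76 CPM in wild-type γδ T barcodes, against 143 CPM in TG-labelled and 83.8 CPM in wild-type αβ T barcodes (log2 -3.24, adjusted p = 9.62e-04). S1pr1, the receptor for tissue exit, had a log2 difference of -1.82 from αβ T (adjusted p = 0.0168), a call lost with DESeq2 and without the block. Ccr8, a skin-homing receptor of regulatory and type 2 T cells, had 0 UMIs in γδ T barcodes and was at least 15.9-fold lower than in αβ T and 39.1-fold lower than in Foxp3 T. Itgae, which encodes the integrin of epidermal T cells, did not pass against αβ T, at 266 CPM in TG-labelled and 259 CPM in wild-type γδ T barcodes, against 206 CPM in TG-labelled and 87.8 CPM in wild-type αβ T barcodes.

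The 10 genes with the largest fold in each direction against αβ T often depended on the barcodes with other cell types' markers. Of these genes, 9 had too few UMIs to be tested without those barcodes, among them Il6, Has1, Fn1 and Fscn1 on the higher side and the keratinocyte envelope gene Sprr1a on the lower side. Those that stayed in the test were also called there. Batf3, a basic leucine zipper transcription factor, stood at 83.2 CPM in TG-labelled and 125 CPM in wild-type γδ T barcodes with 0 UMIs in αβ T, at least 14.7-fold higher (adjusted p = 6.04e-04). Sema6a, a membrane-bound semaphorin, stood at 83.2 CPM in TG-labelled and 94.8 CPM in wild-type γδ T barcodes with 0 UMIs in αβ T, at least 11.6-fold higher (adjusted p = 0.00178). Amdhd2, an enzyme of amino sugar metabolism, stood at 33.3 CPM in TG-labelled and 41.8 CPM in wild-type γδ T barcodes with 0 UMIs in αβ T, at least 5.04-fold higher (adjusted p = 0.0204), a call lost without the block and without Trac-positive barcodes. Batf3, Sema6a and Amdhd2 reached the limit of 30 UMIs only through γδ T barcodes, so their p-values are description. On the lower side 8 genes remained, among them Ccl5, Cd4, Cd27 and Lck. Ly6c2, a surface protein of memory CD8 T cells and monocytes, had 0 UMIs in γδ T barcodes and was at least 54.0-fold lower, a call that DESeq2 did not make. Cd8b1, the β chain of the CD8 coreceptor, and Slamf6, a receptor of the SLAM family, also had 0 UMIs there and were at least 36.5-fold and 32.6-fold lower. Ccl5, Ly6c2 and Cd8b1 reached the limit of 30 UMIs only through αβ T barcodes, so their calls are description.

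Between the libraries, levels within γδ T barcodes were compared as ratios of the TG-labelled library over wild type, with exact intervals and no test. Of 3251 genes with at least 50 UMIs, 48 (1.48%) were at least 2-fold higher and 199 (6.12%) at least 2-fold lower in TG-labelled γδ T barcodes. In all 1506 of them (46.3%) were higher, the median log2 ratio was -0.05, and the interval excluded 1 for 18.9%. The TG-labelled sum held 180264 UMIs and the wild-type sum 717220 UMIs. RNA of other cells moved with the library: fibroblast markers summed to 38.8 CPM in TG-labelled and 729 CPM in wild-type γδ T barcodes, endothelial markers to 105 and 600 CPM in TG-labelled and wild-type, neutrophil markers to 566 and 1327 CPM in TG-labelled and wild-type, keratinocyte markers to 1287 and 103 CPM in TG-labelled and wild-type, and macrophage markers to 655 and 58.6 CPM in TG-labelled and wild-type. Single barcodes held 208 of 232 TG-labelled keratinocyte UMIs, 111 of 118 TG-labelled macrophage UMIs, 293 of 523 wild-type fibroblast UMIs and 189 of 430 wild-type endothelial UMIs. The part of this RNA in the ratios was not tested. Genes at least 2-fold lower numbered 103 without barcodes with at least 10 UMIs of other types' markers and 106 without the deepest 5% of barcodes. After thinning each barcode to 1000 UMIs, which left fewer genes measured, 14 genes were at least 2-fold higher and 15 lower. The genes named next had no barcode with over 20% of their UMIs in either library.

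Hilpda, a lipid droplet protein induced by low oxygen, had the largest ratio of these, at 749 CPM in TG-labelled and 259 CPM in wild-type γδ T barcodes, a ratio of 2.89 (2.30 to 3.62). Pdcd1 followed, at 1537 CPM in TG-labelled and 570 CPM in wild-type γδ T barcodes, a ratio of 2.69 (2.31 to 3.15). At 1000 UMIs per barcode it was detected in 70.5% of TG-labelled members (54.8 to 83.2%) and 41.7% of wild-type members (33.4 to 50.4%), against 90.9% and 82.0% in TG-labelled and wild-type members unthinned. Its median was 4 UMIs per TG-labelled member and 2 UMIs per wild-type member, and the deepest member held 37 UMIs in the TG-labelled library and 15 UMIs in wild type. The αβ T barcodes had Pdcd1 at 1000 UMIs in 35.7% of TG-labelled and 22.0% of wild-type cases, and the Foxp3 T barcodes in 20.5% of TG-labelled and 9.09% of wild-type cases. Vps37b, an endosomal sorting protein, had a ratio of 2.62 (2.02 to 3.38), Pde7a, which degrades cyclic AMP, one of 2.56 (1.63 to 3.96) and the β-tubulin Tubb4b one of 2.27 (1.69 to 3.02). The centromere histone Cenpa, the interleukin 21 receptor Il21r and the signalling adaptor Pea15a completed the 8, with ratios of 2.63, 2.32 and 2.24.

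Among the 8 lowest ratios, Gzmb, the granule protease of cytotoxic and epidermal γδ T cells, had the most UMIs, at 122 CPM in TG-labelled and 326 CPM in wild-type γδ T barcodes, a ratio of 0.374 (0.230 to 0.580). It was detected in 12 TG-labelled and 47 wild-type members. The other 7 were Fes, a tyrosine kinase, Gng12, a G protein subunit, Eps15, an endocytic adaptor, Cwc27, a spliceosome-associated protein, Rlim, a ubiquitin ligase, Tasor, a silencing factor, and B3gnt2, a glycosyltransferase. Their ratios lay between 0.301 (Fes, 0.0948 to 0.740) and 0.376 (Tasor, 0.146 to 0.815). Each of the 7 stood at 27.7 to 38.8 CPM in TG-labelled γδ T barcodes, where they were found in 5 to 7 members, and at 75.3 to 103 CPM in wild-type ones. The sign of Gng12 turned after thinning, to a log2 ratio of 0.07.

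No type 17 transcription factor or surface gene with at least 50 UMIs was 2-fold apart between libraries. Of 11 transcription factors of the list, 6 were higher in TG-labelled γδ T barcodes with a median log2 ratio of 0.13, and of 18 surface genes 13 were higher, with a median of 0.20. Their intervals excluded 1 for 36.4% of the transcription factors and 44.4% of the surface genes, against 18.9% of all genes. Such intervals narrow as UMIs increase, and the genes were not matched for abundance, so these shares cannot be compared directly. Both measured cytokines, Il17a and Il17f, were higher. Scart1 had a ratio of 1.09 (0.949 to 1.25), an interval that includes 1. Il23r was lower in TG-labelled γδ T barcodes, at 544 CPM against 768 CPM in wild type, a ratio of 0.708 (0.565 to 0.879). Irf4 had a ratio of 0.651 (0.466 to 0.892), Ccr2 of 0.564 (0.384 to 0.805) and Stat3, a factor downstream of the interleukin 23 receptor, of 1.66 (1.38 to 1.99). The ratio of Il17a was 1.37 (1.02 to 1.81), but 94.3 CPM remained in the TG-labelled library and 213 CPM in wild type without the leading barcode of each, and the log2 ratio was -2.16 without Trac-positive barcodes. The ratio of Il17f was 74.1 (40.6 to 151), which rested on the single barcode with 199 UMIs. Areg, an epidermal growth factor receptor ligand of tissue repair, stood at 838 CPM in TG-labelled and 209 CPM in wild-type γδ T barcodes, a ratio of 4.01 (3.17 to 5.05). It too was concentrated, with 79 and 42 of 151 TG-labelled UMIs in a pair of barcodes and 60 and 29 of 150 wild-type UMIs in another pair.

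Of 11 residency and trafficking genes, 10 were higher in TG-labelled γδ T barcodes, against 46.3% of all genes, with a median log2 ratio of 0.49. None was 2-fold higher, and 1, the integrin gene Itgb1, was at least 2-fold lower, at a log2 ratio of -1.29. Without the barcodes that held other cell types' markers, Itgb1 was less than 2-fold apart, at 108 CPM in TG-labelled and 165 CPM in wild-type γδ T barcodes. Rgs1 had a ratio of 1.45 (1.27 to 1.64) and Cxcr4 of 1.41 (1.20 to 1.64). Crem, a factor responsive to cyclic AMP, stood at 738 CPM in TG-labelled and 392 CPM in wild-type γδ T barcodes, a ratio of 1.88 (1.52 to 2.32). Of 10 receptor signalling genes, 8 were higher, with a median of 0.21. The adaptor gene Lat had a ratio of 1.92 (1.43 to 2.57), and Thy1, a surface protein of T cells, one of 1.72 (1.32 to 2.23). Icos had a ratio of 1.33 (1.19 to 1.49) and Tnfrsf9 of 1.46 (1.24 to 1.71). The lymphotoxin gene Ltb went the other way, with 0.781 (0.668 to 0.909).

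**Figure D5:**
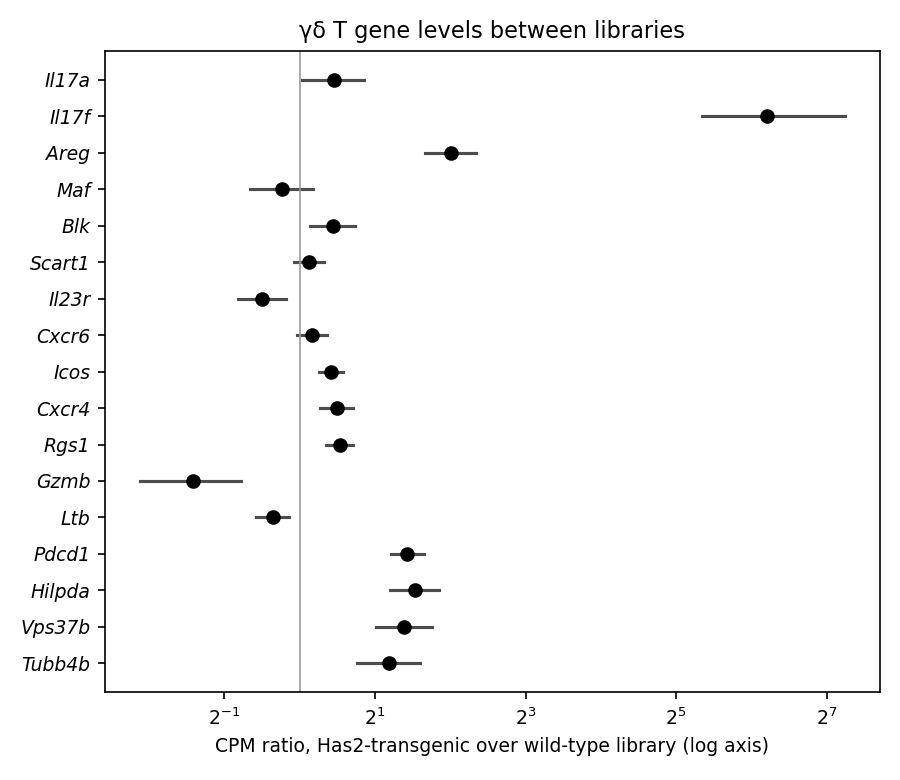
Points give the CPM ratio of the TG-labelled over the wild-type library within γδ T barcodes (log axis) for 17 genes, and lines give exact 95% intervals for counting error. A vertical line marks a ratio of 1. Scart1 spans 1, Pdcd1 stands at 2.69, Gzmb at 0.374 and Il17f, with 199 of 205 TG-labelled UMIs in 1 barcode, at 74.1.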

How the data were processed

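The deposited values were raw UMI counts for each gene and barcode in filtered matrices. Cell Ranger 9.0.1 and build GRCm39 are named in the submitters' processing notes. The 33696 genes carry paired identifiers and symbols. Protocol texts are the same for both samples, although the molecule label is polyA RNA for the Has2-labelled and total RNA for the wild-type sample. The treatment label begins in mid-sentence, so an earlier step may be missing. Descriptions number the samples as replicates 1 and 2 across genotypes, so each genotype has 1 library.

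Barcodes under 200 genes (150 in the TG-labelled library, 137 in wild type) or over 15% mitochondrial UMIs (57 in the TG-labelled library, 25 in wild type) were removed. No doublet caller was run, and barcodes with UMIs of other cell types were left out as an alternative. UMIs were summed per class and library and scaled to CPM of that sum. Sums were tested with edgeR 4.0.16 (R 4.3.3), a quasi-likelihood fit on 6 sums with library as a block, 2 residual degrees of freedom, TMM factors, at least 30 UMIs and Benjamini-Hochberg adjustment over 6641 genes. With the library as a block, the p-values rest on how the differences between classes vary between the 2 libraries. The spread of each gene was moderated with that of all tested genes, so the p-values do not rest on that gene alone. Each genotype has 1 library, so class differences that vary with genotype cannot be told apart from this spread. The p-values do not measure the spread between animals or between libraries of a genotype. Genes of the class rules were left out, and tests of the remaining γδ receptor genes are not reported. Between libraries, exact Poisson, Clopper-Pearson and conditional 95% intervals were computed (scipy 1.17.1). They cover counting error only. Where a class had 0 UMIs, a bound against 3 UMIs over both libraries is given. Thinning drew 1000 UMIs per barcode from every γδ T barcode. It left out 1 TG-labelled αβ T barcode and used 1000 fibroblast-rule barcodes per library, from which 59 TG-labelled and 106 wild-type ones were too shallow.

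Named genes were receptor genes, type 17 list members with at least 20 UMIs, 2 to 4 members of other lists, the 10 largest folds in each direction against αβ T with the same sign in both libraries (none where both classes had 0 UMIs), and the 8 largest ratios in each direction between libraries without a barcode over 20% of UMIs. Further listed genes were named after their values were seen. The members, the 32 gene lists and the rules were chosen with earlier results of these data known. DESeq2 1.42.0, other limits and other filters were alternatives. The intervals were checked on simulated counts with known rates, and the tests between classes were not.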

Additional observations from a re-analysis of the deposited data

Results flagged for a closer look

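The share of γδ T barcodes in the TG-labelled library was 0.370 times that in wild type, while the share of Foxp3 T barcodes was 2.34 times that in wild type. These stand out because the classes moved in opposite directions between the libraries. The difference between them was not tested, since each genotype had 1 library.

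Trdc UMIs lay largely outside γδ T barcodes, with 2263 UMIs in 474 TG-labelled and 2812 UMIs in 486 wild-type barcodes. Most of this signal lay outside the T cell classes compared here. Of the barcodes with Trdc outside γδ T, 401 TG-labelled and 389 wild-type ones exceeded the collagen limit. A Cd3 UMI was held by 7 TG-labelled and 26 wild-type ones. Fibroblast-rule barcodes had 12.2 CPM of Trdc in the TG-labelled and 44.2 CPM in the wild-type library, but 0.165 and 0.0696 CPM of Trdv4 in the TG-labelled and wild-type libraries and 0 CPM of Trgv6 in both.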

How the results depend on the processing

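No paired analysis was possible because each genotype has 1 library. In the contrasts between classes the library was the block. Without the replicate block, 58 genes were higher and 73 lower than in αβ T, and 81 higher and 111 lower than in Foxp3 T. DESeq2 gave 59 higher and 66 lower than in αβ T, and 64 higher and 89 lower against Foxp3 T. Genes higher than in Foxp3 T numbered 298 without the deepest 5% of barcodes, 293 without barcodes with other types' markers, 307 with a filter of 1 UMI and 330 with only the 4 sums compared. Between libraries, genes at least 2-fold lower numbered 106 without the deepest 5% and 103 without other types' markers. Thinned to 1000 UMIs, 14 genes were at least 2-fold higher and 15 lower. Wild-type γδ T barcodes held 60.6% of Il17a UMIs with at least 3 Trdc and Trdv4 UMIs and 61.0% without the deepest 5%. Without barcodes with a Trac UMI, TG-labelled γδ T barcodes held 6.96% of Il17a, 2.26% of Il17f and 0% of Il22 UMIs, since the leading Il17a and Il17f barcodes were left out. Il17f was found in 12.2% of TG-labelled members thinned to 2000 UMIs. Log2 ratios between libraries changed sign for Il17a without Trac-positive barcodes (-2.16), for Blk (-0.05) and Gng12 (0.07) after thinning, for Cxcl2 without the deepest 5% (0.01) and for Ccl2 (0.45 without the deepest 5%, 0.36 without other types' markers). Fabp4, a lipid carrier gene, was at a log2 difference of 5.33 against αβ T without the TG-labelled library and -2.84 without the wild-type library. Of the other comparisons of single genes, 5727 kept direction and side, 153 lost a call and 146 gained one, with the cause not tested. The share ratio of γδ T barcodes stayed within its interval under every alternative run. Depth limits what can be said of sparse genes such as Il22, and 44 TG-labelled members set the precision.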

Other observations

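Other gene groups were tested in the same contrasts. Of 13 interferon response genes, 0 were higher and 2 lower in γδ T than in αβ T barcodes (median log2 difference -0.94), and 0 were higher and 4 lower than in Foxp3 T. Without the barcodes that held other cell types' markers, 4 were lower than in αβ T and 5 lower than in Foxp3 T, of 12 tested. Ifi27l2a, a mitochondrial protein gene induced by interferon, stood at 16.6 CPM in TG-labelled and 73.9 CPM in wild-type γδ T barcodes, against 412 CPM in TG-labelled and 607 CPM in wild-type αβ T barcodes (log2 -3.34, SE 0.34, adjusted p = 1.52e-05). The receptor gene Il1rl1, which encodes the interleukin 33 receptor, stood at 0 CPM in TG-labelled and 4.18 CPM in wild-type γδ T barcodes, against 182 CPM in TG-labelled and 120 CPM in wild-type αβ T barcodes (log2 -5.17, adjusted p = 2.15e-05) and 1119 CPM in TG-labelled and 886 CPM in wild-type Foxp3 T barcodes. Of 12 hypoxia and glycolysis genes and 7 cell cycle genes, 0 were called against αβ T in either direction by edgeR. Between libraries 6 of 7 measured hypoxia and glycolysis genes were higher in TG-labelled γδ T barcodes (median log2 ratio 0.38), against 46.3% of all genes measured, among them the glycolytic enzyme gene Gapdh at 1187 CPM, against 719 CPM in wild type. This direction was not particular to γδ T. The list summed to 3584 CPM in TG-labelled and 2642 CPM in wild-type γδ T barcodes. In αβ T barcodes it summed to 3786 CPM in TG-labelled and 2412 CPM in wild-type, and in Foxp3 T barcodes to 3825 and 3318 CPM.

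Some list members were carried by 1 or a few barcodes. Ctla2a, a protease inhibitor gene of the epidermal γδ T cell list, had 320 of 443 wild-type UMIs in 1 γδ T barcode. Cxcl2, a neutrophil chemokine that is also on the neutrophil marker list, had 324, 316 and 159 of 911 wild-type UMIs in 3 γδ T barcodes, and stood at 355 CPM in TG-labelled and 1270 CPM in wild-type γδ T barcodes. The heat shock gene Hspa1b had 52 of 55 TG-labelled and 113 of 197 wild-type UMIs in 1 barcode of each library.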
